A study of Mus musculus with 12 samples.

Results

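D cyclins, the kinases that they activate and the proteins of the RB family form the switch that commits a cell to division. Here 8 genes of this switch were followed in mouse pre-B cells transformed by BCR-ABL1 and in control pre-B cells: the D cyclins Ccnd1, Ccnd2 and Ccnd3, the kinases Cdk4 and Cdk6, and Rb1, Rbl1 and Rbl2, which encode RB, p107 and p130. The members were the rows of the gene count table whose Ensembl identifier carried one of these 8 symbols. All 8 were found among 51826 rows, and all 8 were among the 15038 genes that passed the filter on low counts.

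The lines came from the bone marrow of 2 C57BL/6 mice, cultured for 7 days with IL7, the cytokine on which early B cells depend. Pre-B cells of each mouse received a retrovirus carrying BCR-ABL1, the fusion kinase of Philadelphia chromosome-positive acute lymphoblastic leukemia, or the empty vector (EV; pMIG in the sample names). After 48 hours with IL7 the cytokine was withdrawn from BCR-ABL1 lines for 1 week, until they were transformed, whereas EV lines stayed in IL7 and were sorted for GFP. Each mouse gave 3 lines per condition, made in independent experiments, so that 6 EV lines stood against 6 BCR-ABL1 lines (1A to 1C from mouse 1, 2A to 2C from mouse 2). The mouse of each line was read from the digit in its sample name, which does not itself name a mouse. The effect of BCR-ABL1, the loss of IL7 and the sort cannot be told apart, and all 12 lines descend from 2 mice, so that p-values measure the spread between lines. The question was how the transformed cells, which divide without IL7, differed in this switch from control cells dividing in its presence.

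A D cyclin binds CDK4 or CDK6, and the active pair phosphorylates RB, p107 and p130. The phosphorylated proteins release E2F transcription factors, and genes needed for S phase are then transcribed. Mitogenic signals reach the switch mainly through the amount of D cyclin. In pre-B cells cyclin D3 links the pre-B cell receptor and the IL7 receptor to division, while Ccnd2 is a known target of STAT5, the transcription factor activated both by the IL7 receptor and by BCR-ABL1.

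Gene counts per line summed to between 34791011 and 64547911 in EV lines and between 45230023 and 66011225 in BCR-ABL1 lines. All 11 B cell precursor markers were expressed in both conditions, with summed CPM (counts scaled to library size) of 2995 to 5174 among EV lines and 3178 to 4033 among BCR-ABL1 lines. Markers of other cells were close to 0. The summed level reached at most 1.10 CPM for the 8 myeloid genes, 1.23 CPM for the 5 T and NK genes, 0.276 CPM for the 5 mast cell and basophil genes, 0.828 CPM for the 4 erythroid genes and 1.23 CPM for the 4 stromal genes. Of the 8 myeloid genes, 4 (Elane, Cd14, S100a8 and S100a9) had at most 3 counts in every line, and Lyz2 was the most abundant. EV line 2A had the highest sum among EV lines for each of these other cell types.

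CPM were scaled by the trimmed mean of M values (TMM), which corrects for differences in library composition. Each gene was tested with the quasi-likelihood method of edgeR, first against a change of 1.5-fold and then against no change, and p-values were adjusted by the Benjamini-Hochberg method over all 15038 genes with a threshold of 0.05. Of the 8 genes, 3 were higher beyond 1.5-fold in BCR-ABL1 lines and 0 were lower; 5.99% of all tested genes were higher and 6.49% were lower by this test. Against no change, 4 were higher and 3 were lower, where the shares among all tested genes were 22.5% and 25.9%. In 3 genes every BCR-ABL1 line lay above every EV line, as it did for 12.1% of all tested genes. In 1 gene every BCR-ABL1 line lay below, as for 13.5% of tested genes. The median log2 fold change of the 8 genes was 0.25, against -0.02 for all tested genes. The 3 genes higher beyond 1.5-fold were the 3 D cyclins.

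**Figure D1:**
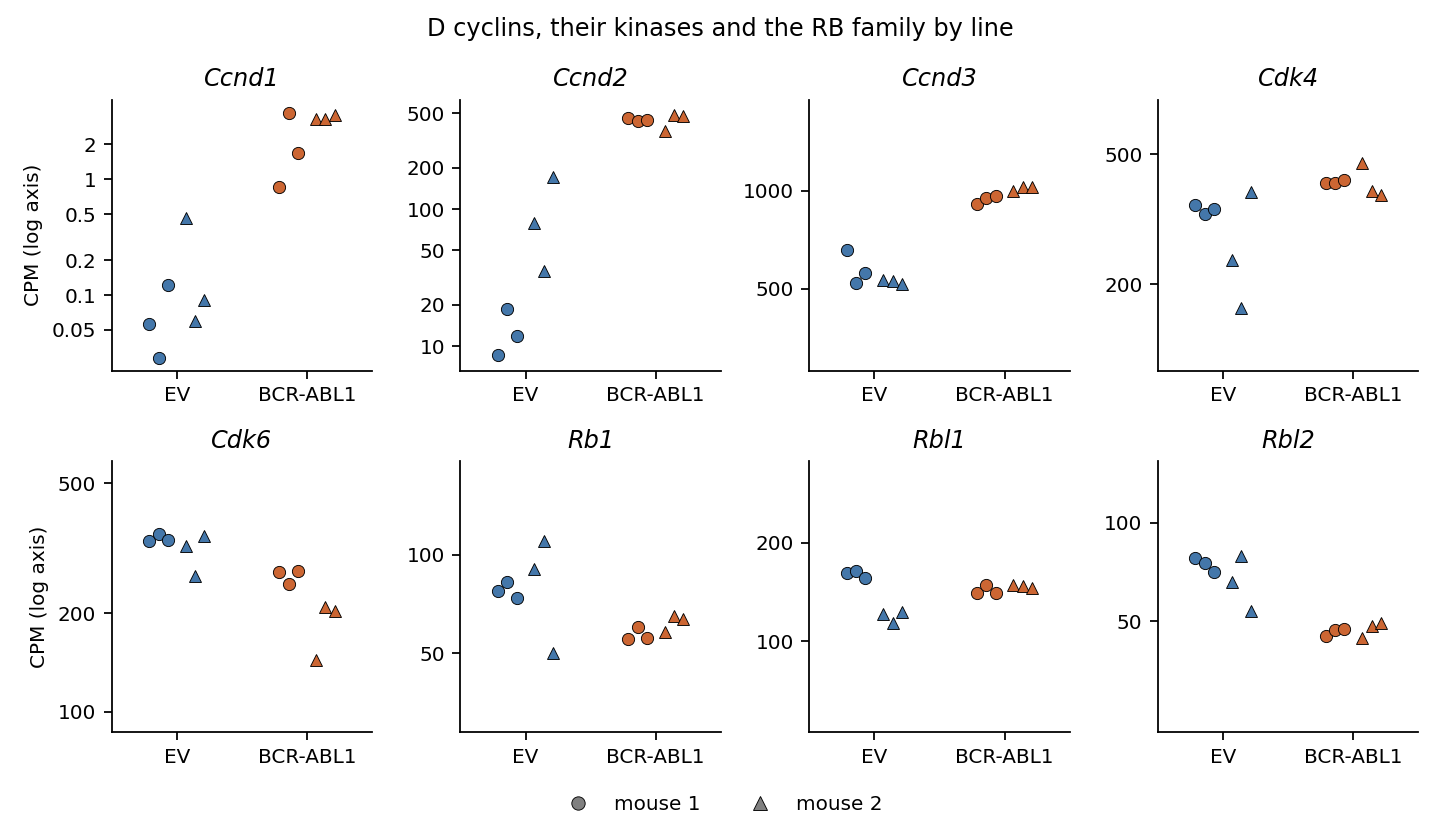
CPM of the 8 genes in each of the 12 lines on logarithmic axes of differing range, with 1 point per line, circles for mouse 1 and triangles for mouse 2. The 3 D cyclins and Rbl2 showed no overlap between EV and BCR-ABL1 lines, and the Ccnd2 values of EV lines spread from 8.58 to 170 CPM while those of BCR-ABL1 lines lay between 373 and 482 CPM.

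Ccnd3 was the main D cyclin of control cells and rose in transformed cells. The gene (ENSMUSG00000034165) lies on the plus strand of GRCm38 at chr17:47505051-47599691. Ccnd3 has annotated start sites far apart, and the count per gene pools the transcripts of all of them, so that a change in one cannot be told from a change in another. The 250 bases before the 2 start sites listed by RefSeq (GRCm38.p6, plus strand) are shown because this pooled gene carries most of the D cyclin RNA. Capitals mark CG dinucleotides.
Ccnd3 start 1, chr17:47504801-47505050: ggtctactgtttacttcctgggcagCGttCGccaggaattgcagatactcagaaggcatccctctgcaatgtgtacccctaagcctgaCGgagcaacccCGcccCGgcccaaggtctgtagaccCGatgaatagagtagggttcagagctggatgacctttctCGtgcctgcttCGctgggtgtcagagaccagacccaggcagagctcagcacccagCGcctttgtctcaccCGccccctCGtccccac
Ccnd3 start 2, chr17:47593217-47593466: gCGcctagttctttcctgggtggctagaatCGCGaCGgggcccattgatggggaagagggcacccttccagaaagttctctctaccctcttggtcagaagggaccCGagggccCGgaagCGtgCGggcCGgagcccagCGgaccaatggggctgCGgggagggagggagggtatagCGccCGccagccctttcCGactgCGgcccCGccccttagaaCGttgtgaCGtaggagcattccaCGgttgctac
The first window held 11 CG dinucleotides and the second 19, where the median over 32851 mouse promoter windows was 6 (quartiles 2 and 16). RefSeq windows were at hand for 5 of the 8 genes. Over their 6 windows, each of 250 bases before and 50 after the start, both strands were searched for the E2F motifs TTTCCCGC and TTTGGCGC, the STAT motif TTCNNNGAA and the cell cycle homology motif TTTGAA. These motifs occur in 1.07%, 0.514%, 8.3% and 17.9% of all windows. The only match to these exact motifs was TTTGAA in the window of Rbl2. Other forms of the E2F site were not searched, so that a window without a match may still hold one.

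Ccnd3 had a lowest, median and highest level of 519, 531 and 656 CPM in EV lines, and of 912, 977 and 1025 CPM in BCR-ABL1 lines. The highest EV value, 656 CPM in line 1A, stayed far below the lowest value of a transformed line. The log2 fold change was 0.82 (SE 0.06, n = 6 per condition), or 1.77-fold, with an edgeR adjusted p of 0.0079 against 1.5-fold and 7.98e-06 against no change. On the log2 scale it rose by 0.71 (SE 0.10) in mouse 1 and 0.96 (SE 0.02) in mouse 2. The difference between the mice did not pass the test (edgeR adjusted p = 0.247). With the lines of mouse 1 alone the change was still present against no change (edgeR adjusted p = 2.99e-05) but no longer passed against 1.5-fold (edgeR adjusted p = 0.0788). Bysl, on the other strand, shares 361 bases with Ccnd3 and was at 27.0 to 60.3 CPM in all lines.

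Ccnd2 showed the widest range among EV lines. Its gene (ENSMUSG00000000184) lies on the minus strand at chr6:127125162-127152193. Its EV level ran from 8.58 CPM in line 1A over a median of 27.0 to 170 CPM in line 2C. Its level in BCR-ABL1 lines was 373 CPM at the lowest, 455 at the median and 482 at the highest. The mice differed among EV lines, with 8.58, 18.8 and 11.9 CPM in lines 1A, 1B and 1C and 78.8, 35.3 and 170 CPM in lines 2A, 2B and 2C. The BCR-ABL1 lines of both mice lay in the same range, 436 to 462 CPM in mouse 1 and 373 to 482 CPM in mouse 2. The standard deviation of log2 CPM was 1.65 in EV lines and 0.13 in BCR-ABL1 lines. A larger SD among EV lines was found in 7 of the 8 genes, all except Cdk6, and in 80.7% of all tested genes.

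Over all lines Ccnd2 was 8.28-fold higher in BCR-ABL1 lines (log2 fold change 3.05, SE 0.68), with an edgeR adjusted p of 0.0111 against 1.5-fold and 0.0029 against no change. The replicate block for mouse moved the log2 fold change to 3.65 (edgeR adjusted p = 0.00192 against 1.5-fold). The increase was 5.09 (SE 0.33) in mouse 1 and 2.23 (SE 0.66) in mouse 2, and this difference of -2.87 passed the interaction test (edgeR adjusted p = 0.00994). Rbl1 was the other of the 2 genes with a difference between the mice, a count to be read against 16.9% of all tested genes. Within mouse 2 alone Ccnd2 passed against no change (edgeR adjusted p = 0.0358) but not against 1.5-fold (edgeR adjusted p = 0.0828). The antisense genes that overlap Ccnd2 reached at most 0.439 CPM.

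Ccnd1 is the D cyclin of many adherent tissues and is usually silent in B lymphoid cells. The gene (ENSMUSG00000070348) lies on the minus strand at chr7:144929931-144939925. EV lines held between 2 and 15 reads of Ccnd1, which gave 0.0289 CPM at the lowest, 0.0749 at the median and 0.460 at the highest. BCR-ABL1 lines held between 50 and 215 reads, or 0.848, 3.29 and 3.72 CPM at the lowest, median and highest. The ranges did not overlap. A log2 fold change of 4.43 (SE 0.54) passed against 1.5-fold (edgeR adjusted p = 0.00056), but the level reached remained far below that of the other D cyclins. EV line 2A, with 15 reads, was the highest control. The change was 4.86 (SE 0.71) in mouse 1 and 4.19 (SE 0.73) in mouse 2, and the mice did not differ by the test (edgeR adjusted p = 0.76). LTO1, on the other strand, shares 1771 bases with Ccnd1 and ran from 21.1 to 29.6 CPM among controls and from 16.7 to 22.1 CPM after transformation. Whether the counting used strand is not given in the sources used here, so that reads of the overlapping stretch could belong to either gene.

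**Figure D2:**
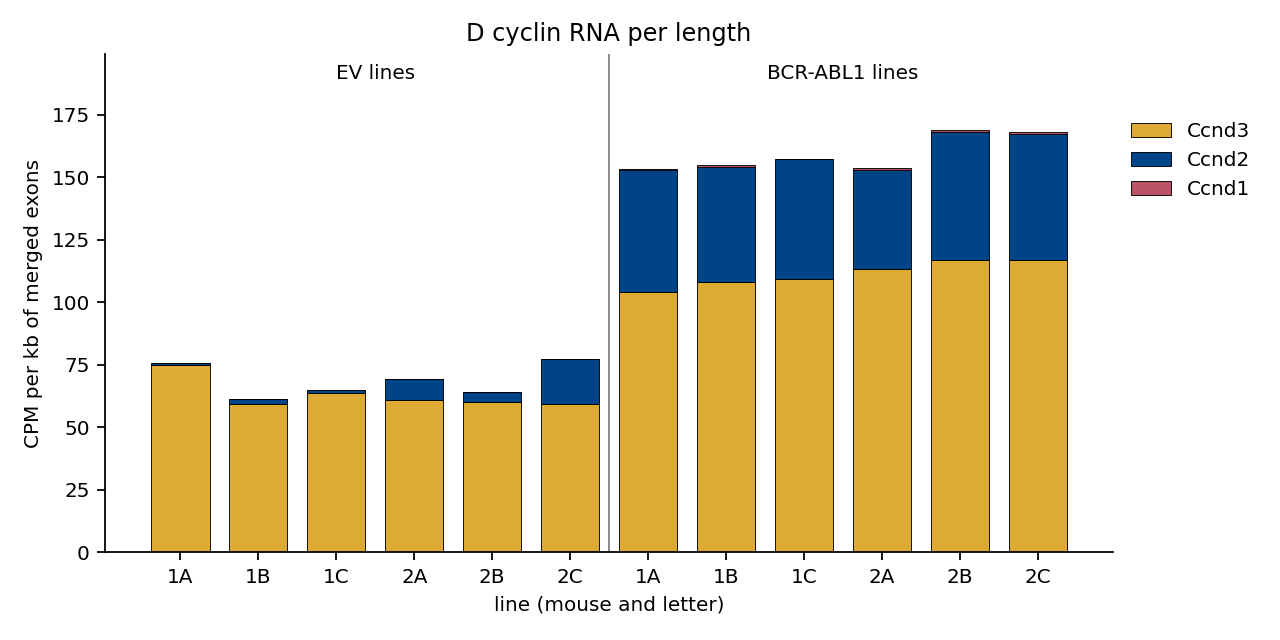
D cyclin RNA of each line as CPM per kb of merged exons, with Ccnd3, Ccnd2 and Ccnd1 stacked. Bars of EV lines reach 61.2 to 77.3 CPM per kb and are mostly Ccnd3, and bars of BCR-ABL1 lines reach 153 to 169 CPM per kb with a larger part from Ccnd2; Ccnd1 is barely visible in any line.

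To compare the cyclins with each other, CPM were divided by the merged exon length of each gene in kb. Merged exons pool all annotated transcripts, and counts per gene do not show which transcripts are in use. Levels compared between genes, and the shares and ratios built on them, depend on these lengths. On this scale Ccnd3 stood at 63.0 ± 6.00 in EV lines and 111 ± 5.16 in BCR-ABL1 lines (mean ± SD, n = 6). Ccnd2 stood at 5.73 ± 6.64 and 47.4 ± 4.20, and Ccnd1 at 0.0290 ± 0.0344 and 0.580 ± 0.250. The order Ccnd3, Ccnd2, Ccnd1 therefore held in both conditions, with no overlap of ranges between neighbours.

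The summed D cyclin level ran from 61.2 to 77.3 CPM per kb among controls and from 153 to 169 CPM per kb after transformation. The mean log2 sum rose from 6.10 to 7.31, a difference of 1.22 (SE 0.06) or 2.33-fold. The two-sided exact permutation test over the 924 labelings of the lines gave p = 0.00216, the smallest that it allows, and an adjusted p of 0.00259 over the 6 composition measures examined. The gain was nearly the same in mouse 1 (1.21) and mouse 2 (1.22). Ccnd3 supplied 76.6% to 98.8% of the sum in EV lines and 67.8% to 73.7% in BCR-ABL1 lines, a mean difference of -22.1 percentage points (SE 3.58, exact permutation p = 0.00216, adjusted p = 0.00259). The loss of share was 28.9 points in mouse 1 and 15.3 points in mouse 2. Ccnd2 supplied 1.21% to 23.4% in EV lines, the highest in line 2C, and 25.8% to 32.0% in BCR-ABL1 lines. Ccnd1 gave at most 0.141% in EV lines and 0.510% in BCR-ABL1 lines.

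The kinases moved less, and in opposite directions. Cdk4 (ENSMUSG00000006728), the first partner of the D cyclins in most cells, lies on the plus strand at chr10:127063534-127067920. Its level was 169, 334 and 384 CPM (lowest, median, highest) in EV lines and 376, 409 and 472 CPM in BCR-ABL1 lines. Mouse 1 lines were clearly apart, with 328 to 349 CPM before and 409 to 419 CPM after transformation, whereas EV lines of mouse 2 ran from 169 CPM in 2B to 384 CPM in 2C. Its log2 fold change of 0.45 (SE 0.19) passed against no change by a small margin (edgeR adjusted p = 0.0431) and not against 1.5-fold (edgeR adjusted p = 1). The call was lost when any of 8 lines was left out (edgeR adjusted p from 0.0533 to 0.0912): EV lines 1B and 2A and each of the 6 BCR-ABL1 lines. Tspan31 shares 641 bases with Cdk4 on the other strand and was at 0.0361 to 14.8 CPM in EV lines.

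Cdk6 (ENSMUSG00000040274), the kinase prominent in hematopoietic cells, lies on the plus strand at chr5:3341485-3531008. It had 260, 334 and 350 CPM in EV lines and 144, 228 and 270 CPM in BCR-ABL1 lines. The ranges met only at EV line 2B with 260 CPM, and BCR-ABL1 line 2A was the lowest of all lines. Cdk6 changed by -0.54 on the log2 scale (SE 0.15), which passed against no change (edgeR adjusted p = 0.00833) and not against 1.5-fold (edgeR adjusted p = 0.942). Within the mice it was -0.37 (SE 0.05) and -0.72 (SE 0.21), and the difference between them did not pass (edgeR adjusted p = 0.273).

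Per length, Cdk4 stood at 92.8 ± 25.0 CPM per kb in EV lines and 127 ± 10.3 in BCR-ABL1 lines, and Cdk6 at 23.2 ± 2.35 and 16.0 ± 3.44. Cdk6 made up 17.2% to 26.3% of the kinase sum in EV lines and 6.63% to 13.2% in BCR-ABL1 lines, a difference of -9.41 percentage points (SE 1.78, exact permutation p = 0.00216, adjusted p = 0.00259). From CPM not divided by length the difference was -17.5 points (exact permutation p = 0.00216). The summed kinase level rose by 0.34 on the log2 scale (SE 0.16, exact permutation p = 0.0173, adjusted p = 0.0173), in mouse 1 by 0.18 and in mouse 2 by 0.49. This increase depended on the division by length: the sum of undivided CPM differed by 0.04 (exact permutation p = 0.807). It also lost the call without BCR-ABL1 line 1A, 1B, 1C or 2A (exact permutation p from 0.0584 to 0.0801). The log2 ratio of D cyclins to kinases went from -0.72 in EV lines to 0.16 in BCR-ABL1 lines, a difference of 0.88 (SE 0.15, exact permutation p = 0.00216, adjusted p = 0.00259). Without division by length this difference was 1.20. The closest lines were EV 2B at -0.14 and BCR-ABL1 2A at -0.02.

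**Figure D3:**
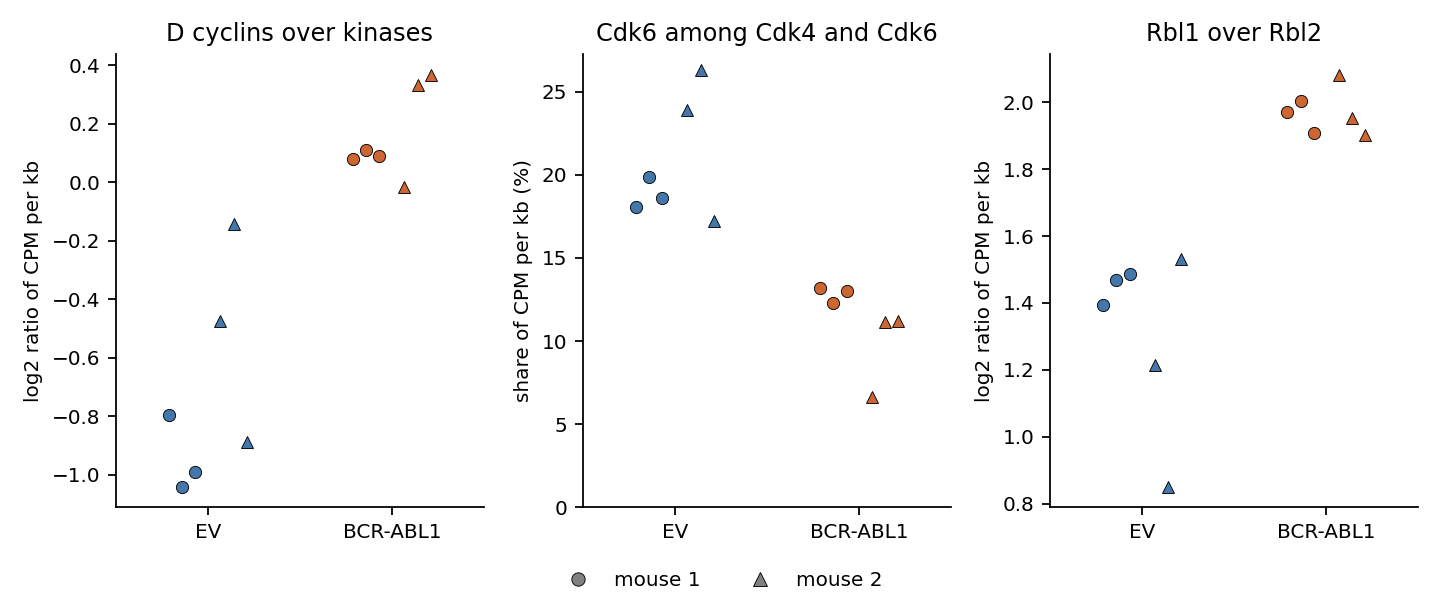
Ratio of the D cyclin sum to the kinase sum (log2), share of Cdk6 in the kinase sum (%) and ratio of Rbl1 to Rbl2 (log2), all from CPM per kb, with 1 point per line, circles for mouse 1 and triangles for mouse 2. EV and BCR-ABL1 lines do not overlap in any panel, and the lines of mouse 2 are more spread than those of mouse 1.

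The RB family split into members that fell and 1 that did not pass. Rbl2 encodes p130, the family member of resting cells, which holds E2F target genes silent in the DREAM complex. The gene (ENSMUSG00000031666) lies on the plus strand at chr8:91070057-91123844. Rbl2 had 53.6, 72.7 and 79.3 CPM in EV lines and 44.3, 47.0 and 49.2 CPM in BCR-ABL1 lines. Every transformed line lay below every control line, with EV line 2C as the lowest control. The log2 fold change of -0.59 (SE 0.09) passed against no change (edgeR adjusted p = 0.000266) and not against 1.5-fold (edgeR adjusted p = 0.726). With mouse 2 alone it was -0.47 (SE 0.17, edgeR adjusted p = 0.0747 against no change). Aktip overlaps Rbl2 on the other strand and was at 13.7 to 16.8 CPM over all lines.

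Rb1 (ENSMUSG00000022105), the tumor suppressor that gives the family its name, lies on the minus strand at chr14:73183673-73325822. It had 50.0, 80.0 and 110 CPM in EV lines and 55.1, 59.1 and 65.1 CPM in BCR-ABL1 lines. EV line 2C was below all transformed lines and the other EV lines were above them. The log2 fold change was -0.44 (SE 0.16, edgeR adjusted p = 0.0265 against no change and 1 against 1.5-fold). The call was lost without BCR-ABL1 line 1A (edgeR adjusted p = 0.0516) or 1C (edgeR adjusted p = 0.0611) and with mouse 2 alone (edgeR adjusted p = 0.302). Lpar6 and Rcbtb2 overlap Rb1 on the other strand, at 35.4 to 68.8 CPM and 59.3 to 72.3 CPM in EV lines.

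Rbl1 encodes p107, which is itself transcribed in cycling cells. The gene (ENSMUSG00000027641) lies on the minus strand at chr2:157145893-157204534. Its level was 113, 140 and 165 CPM in EV lines and 140, 147 and 149 CPM in BCR-ABL1 lines. Over all lines Rbl1 differed by 0.05 on the log2 scale (SE 0.10), which did not pass (edgeR adjusted p = 0.677 against no change). The mice went opposite ways: EV lines of mouse 1 were at 156 to 165 CPM, above its transformed lines at 140 to 149 CPM, and EV lines of mouse 2 were at 113 to 123 CPM, below its transformed lines at 146 to 149 CPM. Within the mice the log2 fold change was -0.16 (SE 0.04) in mouse 1 and 0.32 (SE 0.04) in mouse 2. The difference of 0.48 passed the interaction test (edgeR adjusted p = 0.00464). The transformed lines of both mice again lay in 1 narrow range.

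Per length, Rbl1 stood at 23.4 ± 3.87 CPM per kb in EV lines and 24.2 ± 0.688 in BCR-ABL1 lines, Rb1 at 13.4 ± 3.31 and 9.91 ± 0.680, and Rbl2 at 9.31 ± 1.26 and 6.19 ± 0.245. The ranges of Rbl1 and Rb1 did not overlap in either condition, whereas in EV lines those of Rb1 (8.32 to 18.3) and Rbl2 (7.09 to 10.5) did. The log2 ratio of Rbl1 to Rbl2 rose from 1.32 to 1.97, a difference of 0.64 (SE 0.11, exact permutation p = 0.00216, adjusted p = 0.00259). It was 0.51 in mouse 1 and 0.78 in mouse 2, and EV line 2B had the lowest ratio of all lines (0.85).

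**Figure D4:**
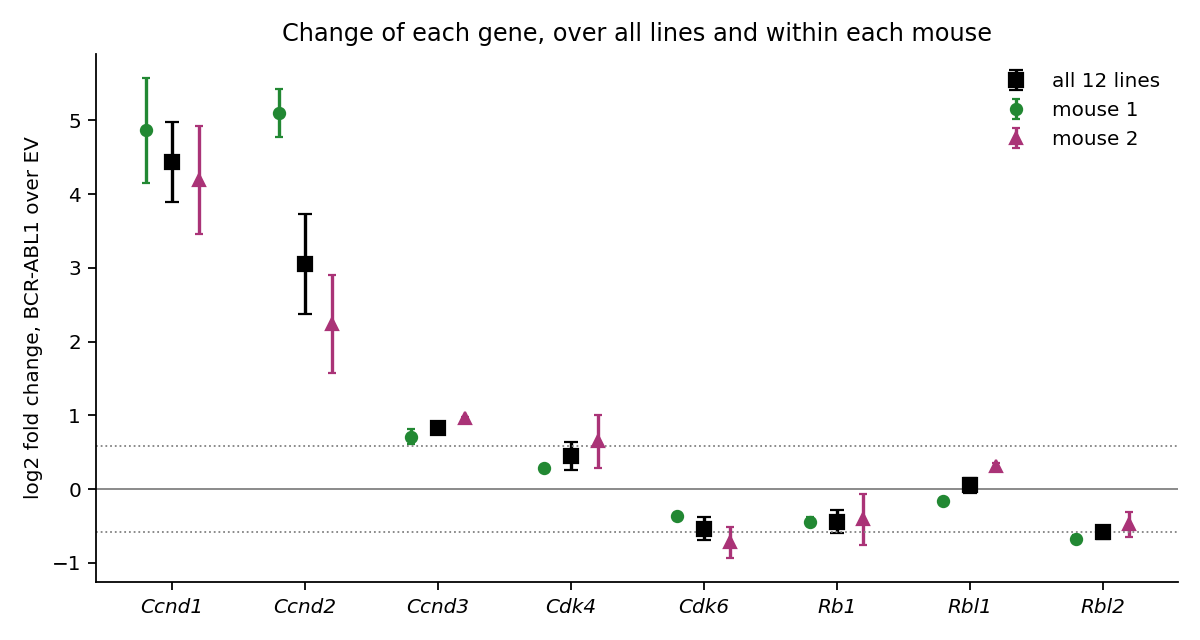
Log2 fold change of each gene, BCR-ABL1 over EV, from all 12 lines (squares), from mouse 1 (circles) and from mouse 2 (triangles); bars are standard errors, the solid line marks no change and the dotted lines mark 1.5-fold. The mice are farthest apart for Ccnd2 (5.09 and 2.23), and Rbl1 is the 1 gene whose estimates lie on opposite sides of 0 (-0.16 and 0.32).

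The level of the cell cycle program itself differed between lines and is given here beside these results. The summed level of 17 E2F target genes of S phase was 4408 to 4776 CPM in EV lines of mouse 1, 2689 to 4379 CPM in those of mouse 2 and 4729 to 5369 CPM across transformed lines. The sum of 6 proliferation markers was 3581 to 3663 CPM, 2539 to 2798 CPM and 3686 to 4124 CPM in the same groups. EV line 2B had the lowest sum for both lists, the lowest Cdk4 and the lowest Cdk6 among EV lines. The part of proliferation in the results above was not tested. Fewer cycling cells and less RNA per cell cannot be told apart in bulk samples.

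Among the 15 late G1 and E2F genes, 0 passed against 1.5-fold, 4 were higher against no change and 2 were lower, with a median log2 fold change of 0.29. These counts stand beside 22.5% higher and 25.9% lower over all tested genes. With mouse 1 alone 4 were higher and 5 lower, and with mouse 2 alone 5 and 1. The fits of each mouse alone called 10494 (mouse 1) and 2910 (mouse 2) of all genes against no change. The number tested in those fits is not given here, and the fit over all lines tested 15038. With so many genes called in mouse 1, counts from 1 mouse alone are not read as particular to a list. Over all lines the 4 higher genes were E2f8 (0.67), Tfdp1 (0.58), E2f3 (0.47) and E2f6 (0.39). The 2 lower genes were the dimerization partner Tfdp2 (-0.52) and the activator E2f2 (-0.47). Ccne1 and Ccne2, the cyclin E genes that act after the D cyclins, had log2 fold changes of 0.36 and 0.29 (edgeR adjusted p = 0.0521 and 0.152 against no change). In 7 of these 15 genes the change differed between the mice by the interaction test, against 16.9% of all tested genes. The same held for 3 of the 17 S phase targets and 3 of the 6 proliferation markers. Of the 17 S phase targets, 6 were higher against no change and 0 were lower, 16 had a positive log2 fold change, and the median was 0.28. With mouse 1 alone 5 were higher and 4 lower, and with mouse 2 alone 3 and 0. The count of calls ran from 4 (without EV line 2A or BCR-ABL1 line 2A) to 9 (without EV line 1A) with 1 line left out, and with the mouse as replicate block Tk1 was lower (-0.24, edgeR adjusted p = 0.013) and 7 were higher. Cdc6, which loads the replicative helicase, changed by 0.57, and Tyms, which makes thymidylate, by 0.48. Of the 6 proliferation markers 3 were higher against no change, Ccnb1 (0.65), Cdk1 (0.49) and Top2a (0.33), and 0 were lower. None of the genes in these 3 lists passed against 1.5-fold.

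Inhibitors of the kinases included the largest changes around the switch. Cdkn2a, whose locus encodes the CDK4 and CDK6 inhibitor INK4A and, from another reading frame, ARF, did not exceed 0.866 CPM among controls and ran from 25.0 to 28.9 CPM after transformation. This was a log2 fold change of 5.77 (SE 0.34, edgeR adjusted p = 2.03e-06 against 1.5-fold), and the count per gene cannot separate the transcripts. Its neighbour Cdkn2b, which encodes INK4B, went from at most 0.153 CPM to between 0.780 and 1.25 CPM (log2 fold change 5.43, SE 0.40, edgeR adjusted p = 0.000394). The size of that change is uncertain, since EV lines held few or no reads. Cdkn1a, which encodes p21, was higher by 0.52 against no change, and Cdkn2d, which encodes INK4D, was lower by 0.66. In all, 3 of the 7 inhibitors were higher and 1 was lower against no change, and 2 and 0 beyond 1.5-fold; over all tested genes the shares were 22.5% and 25.9%, and 5.99% and 6.49%. The change differed between the mice for Cdkn2a (-1.60, edgeR adjusted p = 0.000686) and for Cdkn1c (-4.93, edgeR adjusted p = 6.75e-05), a gene that reached at most 1.15 CPM. Over all tested genes 16.9% had such a difference. The Cdkn2a difference rests on low EV levels, 0.230 to 0.866 CPM, beside transformed lines in 1 narrow range. With mouse 2 alone 2 were higher and 0 lower against no change, where 2910 of all genes were called (15038 were tested over all lines).

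Genes that act on the stability or assembly of the cyclin-kinase pairs went both ways. Of 8 genes of D cyclin turnover, Dyrk1b, a kinase that phosphorylates D cyclins for degradation, passed against 1.5-fold. Dyrk1b ranged from 11.6 to 36.7 CPM among controls and from 6.24 to 7.79 CPM in transformed lines (log2 fold change -1.67, SE 0.24, edgeR adjusted p = 0.00159). Dyrk1a and Gsk3a were also lower against no change (-0.33 and -0.21), and Fbxo31 was higher (0.82), so that 3 of the 8 were lower and 1 was higher, where the shares over all tested genes were 25.9% and 22.5%. With mouse 2 alone Dyrk1b no longer passed against 1.5-fold. Of 6 genes for CDK activation and chaperoning, 3 were higher against no change, Hsp90aa1 (0.68), Hsp90ab1 (0.49) and Cdk7 (0.34), and 0 passed against 1.5-fold. With mouse 1 alone 5 of the 6 were higher, and with mouse 2 alone 0. Of 7 genes of the MuvB core and its partners, Lin37 was lower against no change (-0.52) and none was higher. With mouse 1 alone 5 of the 7 were lower, and with mouse 2 alone 0. These per-mouse counts stand beside 10494 of all genes called against no change with mouse 1 alone and 2910 with mouse 2 alone. The fit over all lines tested 15038 genes, so that calls with mouse 1 alone were common and are not particular to these lists.

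Of 18 genes that act on D cyclin expression in pre-B cells, 3 fell beyond 1.5-fold and 0 rose. The shares over all tested genes were 6.49% lower and 5.99% higher. Against no change 5 were lower and 1 was higher, beside 25.9% and 22.5% of all tested genes. Counts from each mouse alone stand beside those over all genes. Beyond 1.5-fold 4389 genes were called with mouse 1 alone (2512 higher, 1877 lower) and 1022 with mouse 2 alone (614 higher, 408 lower). Against no change 10494 and 2910 were called in either direction, beside 15038 genes tested over all lines. With mouse 1 alone 3 were lower and 4 higher beyond 1.5-fold, and 7 and 7 against no change. With mouse 2 alone 1 was lower and 0 higher beyond 1.5-fold, and 5 and 0 against no change. Bcl6, a repressor of Ccnd2 in B cells, ranged from 11.7 to 54.0 CPM among controls and from 1.48 to 2.97 CPM after transformation (log2 fold change -4.08, SE 0.37, edgeR adjusted p = 1.31e-05). Bach2, a transcription repressor of B lineage cells, ranged from 133 to 478 CPM and from 77.9 to 122 CPM (-1.50, SE 0.28, edgeR adjusted p = 0.0067). Il7r, the receptor for the cytokine withdrawn from the transformed lines, ranged from 235 to 401 CPM and from 145 to 189 CPM (-1.06, SE 0.13, edgeR adjusted p = 0.00328). Irf4 and Ikzf3 were lower against no change only (-0.77 and -0.64). EV line 2C, which had the highest Ccnd2 of the EV lines, had the lowest Bcl6 of them at 11.7 CPM. Whether the levels of Bcl6 and Ccnd2 are related across lines was not tested.

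Mycn, a growth regulator, was the 1 gene of this list higher against no change. EV lines reached from 2.83 CPM to 76.4 CPM, the highest being 2C, and transformed lines lay between 99.9 and 106 CPM. The change was 2.66 on the log2 scale (SE 0.73, edgeR adjusted p = 0.0191 against no change and 0.0705 against 1.5-fold). With the mouse as replicate block it passed against 1.5-fold (edgeR adjusted p = 0.0195). The surrogate light chain genes Vpreb1 and Igll1 did not pass over all lines (0.35 and 0.17), but their change differed between the mice, by -1.96 and -1.72 (edgeR adjusted p = 0.000412 and 0.00577).

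**Figure D5:**
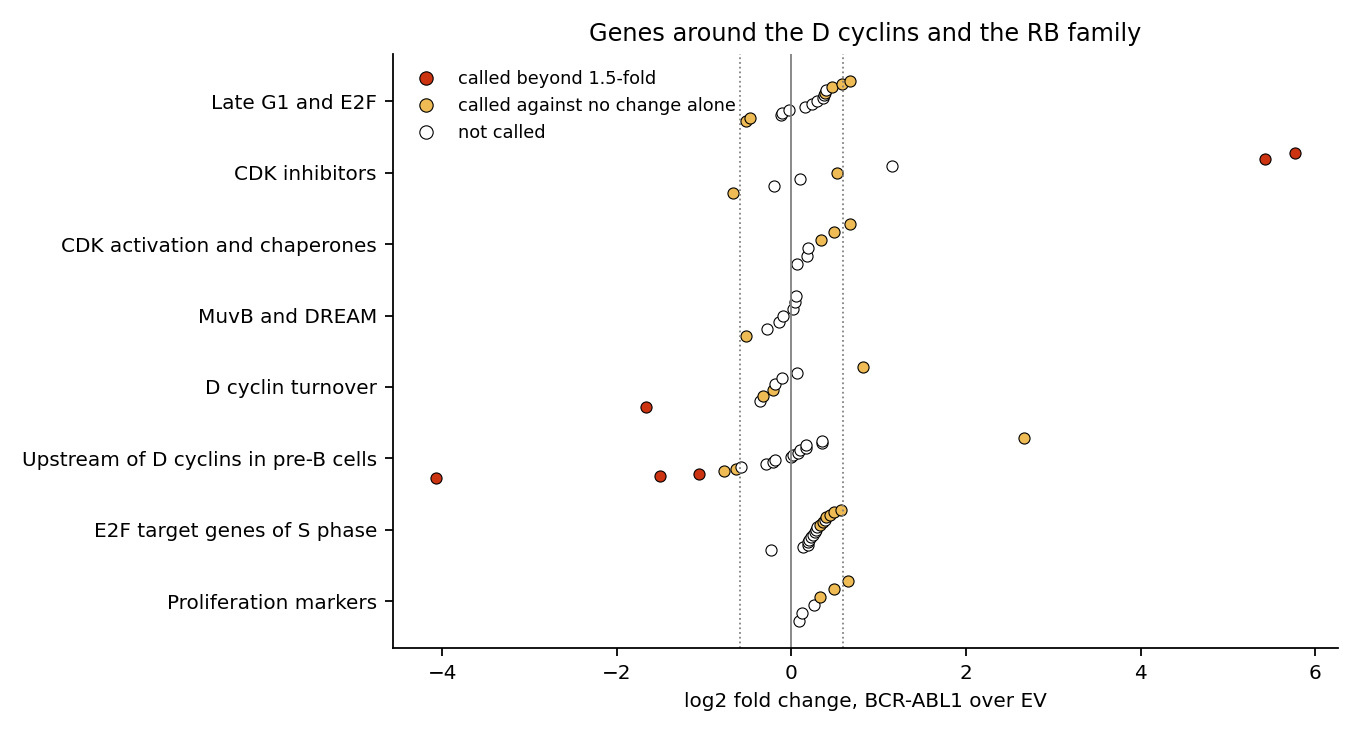
Log2 fold change, BCR-ABL1 over EV, of the genes of 8 lists, with 1 point per gene; dark points passed against 1.5-fold, light filled points against no change alone, and open points neither, and the dotted lines mark 1.5-fold. S phase targets and proliferation markers lie mostly just above 0, while Cdkn2a and Cdkn2b (5.77 and 5.43) and Bcl6 (-4.08) lie far from it.

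Profiles most like those of the D cyclins were sought among 8949 genes whose average abundance in edgeR was at least 3 on the log2 CPM scale (the log of an average over lines, to which the higher group contributes most), by the mean absolute difference of log2 CPM centred on each gene over the 12 lines. For Ccnd2 these were Socs3 (0.36), Cish (0.36) and Mycn (0.41). In EV lines these 3 genes had, like Ccnd2, wide ranges: 0.614 to 6.27 CPM for Socs3, 0.659 to 19.0 CPM for Cish and 2.83 to 76.4 CPM for Mycn. For Ccnd3 the closest profiles were Hmgb3 (0.083), Actg1 (0.090) and Mmd (0.093), all with log2 fold changes between 0.74 and 0.83. For Ccnd1 the closest were Clstn1 (0.58), Tspan3 (0.69) and Aldh1b1 (0.71), larger differences than for the other D cyclins. This measure can grow with a gene's own change (4.43 for Ccnd1, 3.05 for Ccnd2, 0.82 for Ccnd3). It therefore does not rank likeness between the D cyclins. The difference between conditions is itself part of each likeness.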

How the data were processed

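Paired-end RNA-seq of 12 lines (Illumina TruSeq stranded total RNA Gold libraries, HiSeq) was deposited as whole-number read counts per Ensembl gene, not normalized. The submitters' processing notes name FastQC 0.11.5, Trimmomatic 0.36, TopHat2 2.1.1, Bowtie2 2.3.2, featureCounts 1.5.3, R 3.6.1, edgeR 3.18.1 and the build GRCm38; the strand setting and annotation release of the counting are not given in the sources used here. Symbols (51633 of 51826 identifiers), positions and merged exon lengths were taken from GENCODE M21 (GRCm38), and promoter windows from RefSeq (GRCm38.p6).

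Counts were filtered with filterByExpr, scaled by TMM and fitted in edgeR 4.0.16 (R 4.3.3) with glmQLFit over all 12 lines; glmTreat tested against 1.5-fold, glmQLFTest against no change and the interaction of mouse and condition. Composition measures were compared by two-sided exact permutation over 924 labelings, and over 400 within mice (smallest p 0.005). The code was tested on simulated data. Alternatives were RLE size factors, 2 other filters, the likelihood ratio test, DESeq2 1.42.0, replicate blocks, each mouse alone and 12 fits that left out 1 line; EV lines of mouse 1 against all BCR-ABL1 lines was added after seeing the data.

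The digit in each sample name, 1 or 2, was taken as the mouse of the line, so mouse pairs the conditions on this reading. Deviations of EV and BCR-ABL1 lines from their group means correlated at 0.0853 to 0.240 within a mouse and -0.203 to -0.0634 between mice. Because each gene was centred on its group mean, positive values within a mouse bring negative values between mice. The second range therefore adds nothing separate to the first. No pair of lines of 1 mouse and condition agreed within sampling noise (chi-square per gene at least 9.36). The members, lists and tests were chosen with earlier results of these data known. Named genes are the 8 members, list genes called beyond 1.5-fold (at most 4 per list and direction), and the 3 profiles nearest each D cyclin; further list genes were named after their values were seen.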

Additional observations from a re-analysis of the deposited data

Results flagged for a closer look

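In 5 of 28 groups of 6 lines examined, 1 line stood apart by Dixon's ratio. This ratio is the gap to the nearest line over the whole range of the group. For independent groups of normally distributed values, chance gives about 1 in 20. The composition measures were built from the same genes, so the 5 cannot be read against that rate. Among EV lines, Ccnd1 was highest in 2A (0.460 CPM, next 0.123 CPM, ratio 0.782), a difference of few reads. Ccnd3 was highest in EV line 1A (656 CPM, next 558 CPM, ratio 0.716). Cdk6 was lowest in EV line 2B (260 CPM, next 322 CPM, ratio 0.694). Among BCR-ABL1 lines, 2A had the highest share of Ccnd3 in the D cyclin sum (73.7%, next 69.6%, ratio 0.702) and the lowest share of Cdk6 in the kinase sum (6.63%, next 11.1%, ratio 0.684).

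In 2 genes the change differed between the mice by the interaction test. The log2 fold change of Ccnd2 was smaller in mouse 2 than in mouse 1 by 2.87 (-2.87, edgeR adjusted p = 0.00994), and that of Rbl1 was larger by 0.48 (edgeR adjusted p = 0.00464). In both genes the transformed lines of the mice shared 1 range, and the EV lines of the mice did not overlap.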

How the results depend on the processing

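The D cyclin calls beyond 1.5-fold (3 genes) were the same in number under RLE, no filter, the likelihood ratio test, DESeq2, both replicate blocks and each line left out (3 to 3); a filter of 1 CPM in 6 lines removed Ccnd1 and gave 2, and each mouse alone gave 2. Calls against no change (7) were 5 to 7 with 1 line left out, 7 with the mouse as replicate block, 5 with mouse and letter as replicate block, which lost Cdk4 (edgeR adjusted p = 0.052) and Rb1 (0.0521), 5 with no filter, which lost the same 2 genes (0.0746 and 0.0572), 8 with mouse 1 alone and 4 with mouse 2 alone. The mouse block changed no call of the 8 genes. The genes with a difference between the mice numbered 2 to 3 with 1 line left out; without EV line 2C Cdk4 joined them (0.74, edgeR adjusted p = 0.00633). Rbl1 changed sign with mouse 1 alone (-0.1612), with EV lines of mouse 1 against all BCR-ABL1 lines (-0.1584) and without EV line 2B (leave-one-out range -0.01211 to 0.1245).

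The composition measures kept their direction in every alternative run. With 3 lines against 3 of 1 mouse the exact test cannot go below p = 0.1, so no call was possible: the differences in mouse 1 and mouse 2 alone were 1.212 and 1.223 for the D cyclin sum, -28.85 and -15.34 for the Ccnd3 share, 0.1779 and 0.4933 for the kinase sum (p = 0.1 and 0.3), -6.005 and -12.82 for the Cdk6 share, 1.034 and 0.7297 for the ratio of D cyclins to kinases, and 0.5104 and 0.7796 for the ratio of Rbl1 to Rbl2. The kinase sum was 0.04143 without division by length and 0.2004 to 0.4036 with 1 line left out. Within-mouse labelings as replicate block gave adjusted p = 0.006 for each measure except the kinase sum (0.02). Over all genes, 1877 were called beyond 1.5-fold, 4389 with mouse 1 alone and 1022 with mouse 2 alone; against no change 7286 were called, 10494 with mouse 1 alone and 2910 with mouse 2 alone. Counts of 0 to 15 reads limit what can be said of Ccnd1 and Cdkn2b in EV lines.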
